A study of Mus musculus with 18 samples.

Results

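A set of 8 genes of sterol synthesis and its control was followed in MIN6 cells, a mouse insulinoma line used as a model of the pancreatic beta cell: Hmgcs1, Idi1, Fdps, Fdft1, Sqle and Cyp51, which encode enzymes, and Insig1 and Srebf2, which encode regulators. The list was chosen by the early rise of Hmgcs1, so the values of CPA1 against control selected its lead member and are given below as a description, with no test. The other members were also chosen with earlier results of these data known. All 8 members were among the 6929 genes tested, of 17207 genes with a read in any library. Cyclopiazonic acid (CPA), an inhibitor of the SERCA pump that fills the endoplasmic reticulum (ER) with calcium, was given at 200 µM for 1 h (CPA1) or 18 h (CPA18), and the control received DMSO, the solvent, for 18 h. Each treatment was measured by mRNA-seq of poly(A) RNA and by Ribo-seq of ribosome-protected fragments in 3 independent experiments, which gives 18 libraries in 6 groups of 3. All groups are the same untransfected cell line, and CPA1 has no DMSO control of its own duration.

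Cholesterol is built from acetyl-CoA through mevalonate, isoprenoid phosphates, squalene and lanosterol. The transcription factor SREBP2, the product of Srebf2, is held in the ER membrane with its escort SCAP by INSIG proteins while sterols are plentiful. When ER sterol falls, it moves to the Golgi, is cut by proteases and enters the nucleus, where it activates genes for sterol synthesis and uptake, among them Insig1 and Srebf2 itself.

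The members do not all carry the same short sequences before their start sites, and the promoters are shown for that reason. RefSeq promoter sequences (GRCm38.p6) were matched for 5 of the 8 members, and each line gives the 250 bases before the annotated start, 5′ to 3′ on the gene's strand; no entry was matched for Sqle, Fdps and Fdft1. Capitals mark matches, on either strand, to TCACCNCA, a core of the sterol regulatory element, or to CCAAT, the box bound by the factor NF-Y, which reads ATTGG on the other strand. The letters to search for were set after the sequences had been read.
Hmgcs1 (chr13:119690101-119690350, plus strand): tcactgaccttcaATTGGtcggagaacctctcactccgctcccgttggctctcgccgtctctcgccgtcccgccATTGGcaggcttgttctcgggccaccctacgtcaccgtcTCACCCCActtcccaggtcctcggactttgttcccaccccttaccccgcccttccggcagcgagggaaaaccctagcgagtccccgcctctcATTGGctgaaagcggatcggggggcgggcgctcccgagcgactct
Insig1 (chr5:28071162-28071411, plus strand): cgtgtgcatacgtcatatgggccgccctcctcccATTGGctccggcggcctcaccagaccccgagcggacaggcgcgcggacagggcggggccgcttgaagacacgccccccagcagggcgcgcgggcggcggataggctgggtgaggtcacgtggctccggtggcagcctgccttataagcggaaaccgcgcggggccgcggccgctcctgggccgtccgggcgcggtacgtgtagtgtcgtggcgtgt
Idi1 (chr13:8885356-8885605, plus strand): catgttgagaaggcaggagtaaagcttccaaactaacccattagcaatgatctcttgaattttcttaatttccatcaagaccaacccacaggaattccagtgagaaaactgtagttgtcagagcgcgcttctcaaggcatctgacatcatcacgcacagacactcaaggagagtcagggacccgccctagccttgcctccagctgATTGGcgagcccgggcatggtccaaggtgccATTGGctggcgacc
Cyp51 (chr5:4104698-4104947, minus strand): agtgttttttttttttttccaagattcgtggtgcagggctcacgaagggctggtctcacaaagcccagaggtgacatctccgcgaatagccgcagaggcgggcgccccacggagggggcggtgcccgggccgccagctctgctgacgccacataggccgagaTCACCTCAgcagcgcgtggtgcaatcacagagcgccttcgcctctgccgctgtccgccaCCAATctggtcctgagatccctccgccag
Srebf2 (chr15:82147019-82147268, plus strand): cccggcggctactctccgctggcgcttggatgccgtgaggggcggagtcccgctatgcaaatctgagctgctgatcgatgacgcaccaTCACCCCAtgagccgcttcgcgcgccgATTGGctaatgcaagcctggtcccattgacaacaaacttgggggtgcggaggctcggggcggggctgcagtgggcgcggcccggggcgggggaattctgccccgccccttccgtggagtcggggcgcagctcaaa
The sterol core was found in 3 of these promoters (Hmgcs1, Cyp51 and Srebf2), and 3.61% of 32851 RefSeq promoter windows of the same length hold it. CCAAT was found in all 5, with 3 matches in Hmgcs1, and in 33.8% of the 32851 windows. The motifs do not overlap each other in the 5 sequences. A match is a description of the letters and was not tested as a binding site, and the absence of the core letters from Insig1 and Idi1 says nothing about the factor.

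Library totals ran from 520960 to 4755030 counted reads in mRNA-seq and from 168129 to 1083297 in Ribo-seq, with the lowest Ribo-seq totals in CPA18. Both control libraries of experiment 2 have titles and descriptions that name different assays. They were placed by their titles, and results that change without them are given without them too. The defining beta-cell markers were present in every group, and their 10 summed RPKM were 158837 to 464544 in control and 44267 to 135605 in CPA18 mRNA-seq. Markers of exocrine, duct, endothelial, stromal and immune cells summed to at most 5.18 RPKM in any library. Markers of other islet endocrine cells summed to 23.8 to 135 RPKM in mRNA-seq and 108 to 241 in Ribo-seq, most of it Gcg, which encodes glucagon (21.7 to 235 RPKM), and Ghrl was at 0 in every control library. Their part in the results was not tested. Insulin genes are among these markers and take part in the library total that scales every gene. The median of all genes tested stood at a log2 difference of 0.38 in mRNA-seq and 0.39 in Ribo-seq in CPA18 against control. Members are therefore also placed against the median gene of each experiment. How much of a member's difference comes from this shift in composition and how much from RNA or cell number cannot be told apart.

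Levels are given as RPKM, reads scaled by transcript length and library total, summed over the transcripts of a gene. In control mRNA-seq the mean level fell from Fdps (131 ± 84.2 RPKM, SD, n = 3) through Insig1 (65.1 ± 18.5), Sqle (21.5 ± 1.75), Srebf2 (20.2 ± 8.66), Fdft1 (14.8 ± 3.97), Cyp51 (11.8 ± 4.35) and Hmgcs1 (3.50 ± 0.874) to Idi1 (2.97 ± 3.24). Neighbours in this order overlapped in range except Insig1 with Sqle and Cyp51 with Hmgcs1. In control Ribo-seq the order was Fdps (197 ± 42.8), Sqle (54.2 ± 7.54), Insig1 (52.7 ± 17.5), Cyp51 (35.5 ± 11.9), Hmgcs1 (25.6 ± 7.50), Fdft1 (21.2 ± 2.66), Srebf2 (17.7 ± 2.95) and Idi1 (6.93 ± 1.83), and only Fdps with Sqle and Srebf2 with Idi1 were separate among neighbours. Reads of all 8 members together made up 0.0547 to 0.0755% of a control mRNA-seq library, 0.0572 to 0.109% in CPA1 and 0.108 to 0.209% in CPA18. In Ribo-seq the shares were 0.0799 to 0.121%, 0.103 to 0.149% and 0.184 to 0.258%. The CPA18 shares lay above every control share in both assays.

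**Figure D1:**
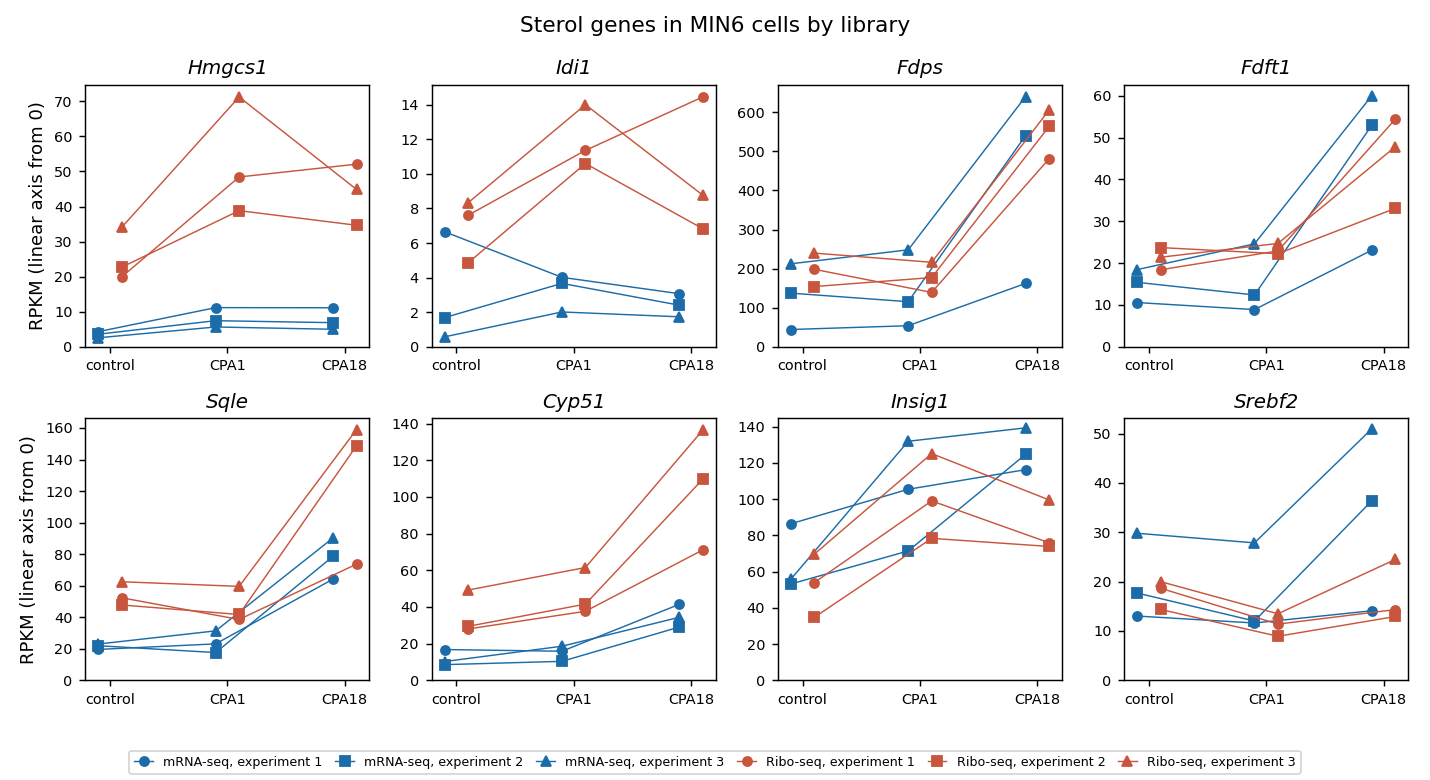
RPKM of the 8 genes on a linear axis from 0, for control, CPA1 and CPA18, with 1 point per library, lines joining the libraries of an experiment, mRNA-seq in blue and Ribo-seq in red. Hmgcs1 and Insig1 were above control in CPA1 in every experiment and assay, while Fdps, Fdft1, Sqle and Cyp51 stood highest in CPA18.

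After 1 h, Hmgcs1, Insig1 and, in Ribo-seq, Idi1 were higher in CPA1 than in control in all 3 experiments, while Fdps, Fdft1 and Sqle lay close to control and Srebf2 lay lower. Over the whole table, 0.534% of genes were called higher and 0.447% lower in CPA1 mRNA-seq, and 3.93% and 3.12% in Ribo-seq, which is given as the background only.

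Hmgcs1 (chromosome 13, 119690351 to 119708260, GRCm38) encodes the cytosolic HMG-CoA synthase, an early enzyme of the mevalonate pathway. Its mRNA-seq level was 4.32, 3.59 and 2.58 RPKM in control experiments 1, 2 and 3, and 11.2, 7.45 and 5.65 in CPA1. The Ribo-seq level was 19.9, 22.7 and 34.1 in control and 48.4, 38.8 and 71.3 in CPA1. In both assays every CPA1 library was above every control library, and the fitted log2 differences were 1.15 ± 0.36 in mRNA-seq and 1.03 ± 0.21 in Ribo-seq (standard error). The mRNA-seq values rest on 8 to 116 reads per library. Reads of the gene were divided between its 2 transcripts in nearly equal parts, 51.7% and 48.3%, and the sum is used.

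Insig1 (chromosome 5, 28071412 to 28078662) encodes the ER protein that retains SCAP. It stood at 86.4, 53.1 and 55.7 RPKM in control mRNA-seq and 105, 71.4 and 132 in CPA1. In Ribo-seq it stood at 53.9, 34.7 and 69.6 in control and 99.0, 78.3 and 125 in CPA1. The CPA1 libraries were above the control library of the same experiment in 3 of 3 pairs in each assay, with no overlap of the groups in Ribo-seq and overlap in mRNA-seq. The log2 differences were 0.66 ± 0.25 and 0.95 ± 0.19.

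Idi1 (chromosome 13, 8885606 to 8892396) encodes the isomerase that interconverts the 5-carbon isoprenoid phosphates. It was the least read member, with 4 to 33 mRNA-seq reads and 4 to 26 Ribo-seq reads per library. Its Ribo-seq level was 7.60, 4.85 and 8.32 RPKM in control, 11.4, 10.6 and 14.004 in CPA1 and 14.5, 6.83 and 8.77 in CPA18. The CPA1 group lay wholly above control in Ribo-seq, with a log2 difference of 0.78 ± 0.37. The mRNA-seq groups overlapped, with 6.66, 1.69 and 0.576 in control, 4.02, 3.67 and 2.02 in CPA1 and 3.07, 2.41 and 1.74 in CPA18. At 18 h Idi1 did not pass the test in mRNA-seq (log2 0.20 ± 0.50, edgeR adjusted p = 0.780) or in Ribo-seq (0.41 ± 0.43, adjusted p = 0.494), and a difference was not detectable at this depth.

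The later enzymes stood nearer to control after 1 h. Fdps stood at 53.9, 115 and 248 RPKM in CPA1 mRNA-seq and 139, 177 and 216 in Ribo-seq, with log2 differences from control of 0.09 ± 0.25 and −0.17 ± 0.18. Fdft1 stood at 8.89, 12.4 and 24.6 in mRNA-seq and 22.9, 22.3 and 24.7 in Ribo-seq, and its differences were −0.004 ± 0.30 and 0.12 ± 0.25. Both genes overlapped their control range in each assay. Sqle stood at 23.1, 17.6 and 31.3 in mRNA-seq and 38.6, 41.7 and 59.5 in Ribo-seq (0.14 ± 0.28 and −0.23 ± 0.21), and its Ribo-seq level was below the control library of each experiment. Cyp51 stood at 15.8, 10.3 and 18.6 in mRNA-seq and 37.6, 41.5 and 61.5 in Ribo-seq (0.38 ± 0.29 and 0.41 ± 0.19). It was above the control library of each experiment in Ribo-seq only, with overlapping groups. Against the median gene of the same experiment, these enzymes lay higher in mRNA-seq in all 3 experiments. Those differences were 0.07 to 0.56 for Fdps, 0.008 to 0.28 for Fdft1, 0.003 to 0.51 for Sqle and 0.19 to 0.73 for Cyp51. In Ribo-seq only Cyp51 did so (0.33 to 0.44). Fdps ran there from −0.61 to 0.07, Fdft1 from −0.22 to 0.33 and Sqle from −0.54 to 0.05.

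**Figure D2:**
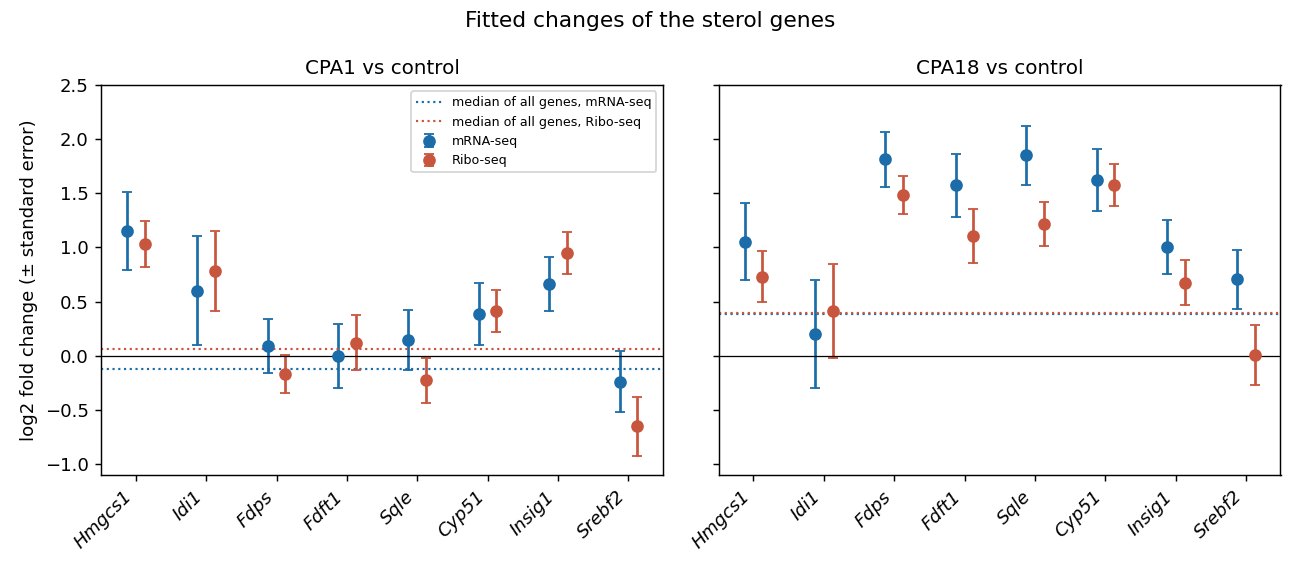
Fitted log2 fold changes of the 8 genes with standard errors (bars) in mRNA-seq (blue) and Ribo-seq (red), for CPA1 against control on the left and CPA18 against control on the right, with dotted lines at the median of all genes. At 1 h Hmgcs1 is highest in both assays, and at 18 h Fdps, Fdft1, Sqle and Cyp51 are the 4 highest in both.

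The comparison of CPA18 with control gives mRNA-seq and Ribo-seq levels after prolonged ER stress, with the same control libraries as the comparison above. Hmgcs1 was chosen for its rise over these control libraries, so its values are a description here too, with no test. Of the 7 other members, 6 were higher in mRNA-seq (all but Idi1) and 5 in Ribo-seq (all but Idi1 and Srebf2), and none was lower. The members were chosen with earlier results of these data known, so these counts and p-values are not independent of that choice. Over all genes tested, 27.7% were higher and 8.15% lower in mRNA-seq, and 26% and 6.8% in Ribo-seq. The 8 members had a median log2 difference of 1.31 in mRNA-seq and 0.92 in Ribo-seq, beside 0.38 and 0.39 for all genes. The adjusted p-values here are from edgeR's quasi-likelihood test with Benjamini-Hochberg adjustment over the 6929 genes and with the experiment as a block. Without the block only Sqle passed in mRNA-seq (1 of 7), and the 5 Ribo-seq calls were made with and without it. Levels of RNA and of ribosome-protected fragments do not measure the rate of sterol synthesis, which was not tested here. The paper followed cholesterol synthesis in MIN6 cells by deuterium labelling and reported a fall under chronic ER stress. The rises of enzyme genes below therefore do not show that more cholesterol was made.

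Fdps (chromosome 3, 89093588 to 89101967) encodes farnesyl diphosphate synthase, whose product feeds squalene and also protein prenylation. Its mRNA-seq level was 44.3, 137 and 212 RPKM in control experiments 1, 2 and 3 and 162, 540 and 640 in CPA18. Its Ribo-seq level was 198, 154 and 240 in control and 481, 563 and 605 in CPA18. Every CPA18 library was above its own control, and the mRNA-seq groups overlapped, with experiment 1 the lowest in each group. The log2 rise was 1.81 ± 0.25 in mRNA-seq (edgeR adjusted p = 4.76e-10, 0.159 without the block) and 1.49 ± 0.17 in Ribo-seq (adjusted p = 4.10e-14).

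Fdft1 (chromosome 14, 63145150 to 63181687) encodes squalene synthase, the first enzyme committed to sterols. It stood at 10.6, 15.4 and 18.5 RPKM in control mRNA-seq and 23.1, 53.0 and 60.05 in CPA18, and at 18.4, 23.7 and 21.4 in control Ribo-seq and 54.4, 33.1 and 47.8 in CPA18. The groups did not overlap in either assay. The rise was 1.57 ± 0.29 on the log2 scale in mRNA-seq (edgeR adjusted p = 3.69e-06, 0.115 without the block) and 1.11 ± 0.25 in Ribo-seq (adjusted p = 0.000129). Its 2 transcripts shared the reads in nearly equal parts (50.6% and 49.4%), and with the most-read transcript alone the Ribo-seq difference was 0.80 with an edgeR adjusted p of 0.0551. DESeq2 did not make the Ribo-seq call either, and 22 of 24 alternatives kept it. Its log2 differences there ran from 0.65 to 1.35.

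Sqle (chromosome 15, 59315092 to 59331193) encodes squalene epoxidase, which adds the oxygen needed before ring closure. In mRNA-seq it stood at 19.6, 21.9 and 22.97 RPKM in control and 64.2, 78.6 and 90.3 in CPA18, and in Ribo-seq at 52.3, 47.8 and 62.5 in control and 73.6, 149 and 159 in CPA18. The 3 control libraries lay close together in each assay and below every CPA18 library. Sqle had the largest mRNA-seq difference of the members, 1.85 ± 0.27 (edgeR adjusted p = 4.59e-09, 0.0385 without the block), and rose by 1.22 ± 0.20 in Ribo-seq (adjusted p = 8.94e-08). In experiment 1 its Ribo-seq ratio was only 0.04 above that of the median gene, against 1.26 and 1.05 in experiments 2 and 3.

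Cyp51 (chromosome 5, 4080674 to 4104697) encodes lanosterol 14-alpha-demethylase. Its mRNA-seq level was 16.8, 8.52 and 10.2 RPKM in control and 41.4, 29.04 and 34.4 in CPA18, and its Ribo-seq level 27.98, 29.4 and 49.2 in control and 71.1, 110 and 136 in CPA18. The groups were separate in both assays, and in each experiment the gene rose more than the median gene. The log2 rise was 1.63 ± 0.28 in mRNA-seq (edgeR adjusted p = 8.23e-07, 0.0893 without the block) and 1.58 ± 0.19 in Ribo-seq (adjusted p = 2.08e-13), the largest Ribo-seq difference of the members.

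Hmgcs1 had a smaller difference at 18 h, at 11.1, 6.88 and 5.001 RPKM in CPA18 mRNA-seq and 52.1, 34.7 and 44.9 in Ribo-seq. Every CPA18 library was above every control library. The fitted log2 differences were 1.05 ± 0.36 (mRNA-seq) and 0.73 ± 0.24 (Ribo-seq). Under the 24 alternatives they ran from 0.61 to 1.17 in mRNA-seq and from 0.38 to 1.00 in Ribo-seq, with the lowest values under TMM scaling, which sets the median gene near 0. Against the median gene of the same experiment its Ribo-seq ratio was 0.93, 0.24 and 0.10 higher on the log2 scale.

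Insig1 stood at 116, 125 and 139 RPKM in CPA18 mRNA-seq and 75.9, 73.8 and 99.5 in Ribo-seq, above every control library in both assays. The log2 rise was 1.00 ± 0.25 in mRNA-seq (edgeR adjusted p = 0.000594, 0.260 without the block) and 0.67 ± 0.21 in Ribo-seq (adjusted p = 0.00682). The mRNA-seq call was kept in 21 of 24 alternatives. It was lost without the block, without experiment 3 and without the control library of experiment 3 (0.79, edgeR adjusted p = 0.0582). In Ribo-seq it was lost without the control library (0.55, edgeR adjusted p = 0.0858) or the CPA18 library (0.55, 0.0708) of experiment 2, and 4 of the 12 alternatives that change the processing kept it, with the highest adjusted p under DESeq2 (0.32, 0.366). Its Ribo-seq ratio was 0.04, 0.72 and 0.22 above that of the median gene in experiments 1, 2 and 3.

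Srebf2 (chromosome 15, 82147269 to 82205379) encodes SREBP2 itself. In mRNA-seq it stood at 13.0, 17.7 and 29.8 RPKM in control, 11.6, 12.004 and 27.9 in CPA1 and 14.1, 36.4 and 51.0 in CPA18. In Ribo-seq it stood at 18.7, 14.4 and 19.997 in control, 11.4, 8.92 and 13.5 in CPA1 and 14.3, 12.9 and 24.5 in CPA18. The CPA1 Ribo-seq libraries were all below the control libraries, by 0.65 on the log2 scale (−0.65 ± 0.27, no test), while CPA18 overlapped control in both assays. At 18 h the fitted mRNA-seq rise was 0.71 ± 0.27 (edgeR adjusted p = 0.0305, 0.456 without the block), and the Ribo-seq difference was 0.01 ± 0.28 (adjusted p = 0.988). Against the median gene its Ribo-seq ratio lay lower in all 3 experiments (−0.83, −0.53 and −0.005) and its mRNA-seq ratio higher (0.16, 0.53 and 0.18). The mRNA-seq call is the least stable of the 6: 10 of 24 alternatives kept it, and TMM scaling gave 0.26 (edgeR adjusted p = 0.245). Leaving out a single library ended it for the CPA18 library of experiment 2 (0.41, edgeR adjusted p = 0.390) or 3 (0.70, 0.152) and the control library of experiment 2 (0.67, 0.169) or 3 (0.65, 0.168).

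The same alternatives show which calls are firmest. In Ribo-seq the calls of Sqle, Fdps and Cyp51 were kept in all 24, which include 12 that leave out 1 library or 1 experiment, and in mRNA-seq Sqle was kept in 24 and Fdps, Fdft1 and Cyp51 in 23, all but the fit without the block. Without both control libraries of experiment 2, 5 of the 7 other members were called in mRNA-seq and 4 in Ribo-seq. Against the median gene of each experiment, Fdps lay higher by 1.00 to 1.92 in mRNA-seq and 0.83 to 1.495 in Ribo-seq, Fdft1 by 1.11 to 1.27 and 0.11 to 1.11, and Cyp51 by 1.16 to 1.36 and 0.89 to 1.52. Idi1 ran from −1.07 to 1.00 in mRNA-seq and −0.22 to 0.47 in Ribo-seq.

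The step from CPA1 to CPA18 was compared to ask which members changed between acute and prolonged treatment. Hmgcs1, whose CPA1 values chose the list, differed by −0.10 ± 0.32 in mRNA-seq and −0.30 ± 0.23 in Ribo-seq and was not tested. Of the other 7 members, 5 were higher in CPA18 in mRNA-seq and 4 in Ribo-seq, beside 34.7% of all genes higher and 5.89% lower in mRNA-seq, and 18.9% and 5.93% in Ribo-seq. The same limit from the choice of members holds for these counts. The median of all genes tested stood at a log2 difference of 0.50 in mRNA-seq and 0.32 in Ribo-seq. The enzymes Fdps, Fdft1, Sqle and Cyp51 made up the Ribo-seq calls. They lay above the median gene of the same experiment in all 3 experiments in each assay. Fdps rose by 1.72 ± 0.25 in mRNA-seq (edgeR adjusted p = 1.50e-09) and 1.65 ± 0.18 in Ribo-seq (8.97e-16), and Sqle by 1.71 ± 0.27 (2.62e-08) and 1.44 ± 0.21 (1.76e-09). Fdft1 rose by 1.58 ± 0.28 in mRNA-seq (edgeR adjusted p = 1.53e-06) and 0.99 ± 0.26 in Ribo-seq (0.00190), and Cyp51 by 1.24 ± 0.27 (0.000102) and 1.17 ± 0.20 (1.48e-07).

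Srebf2 rose in mRNA-seq by 0.94 ± 0.27 (edgeR adjusted p = 0.00268) and did not pass in Ribo-seq (0.66 ± 0.31, 0.108). Its mRNA-seq ratio was 0.08, 0.79 and 0.41 above that of the median gene in experiments 1, 2 and 3. Its mRNA-seq call was kept in 18 of 24 alternatives, with log2 differences from 0.40 to 1.22. Without the CPA18 library of experiment 2 the difference was 0.68 (edgeR adjusted p = 0.0909). The call was also lost with TMM scaling, with DESeq2, without experiment 2 and without experiment 3. Without the block none of the 5 mRNA-seq calls was made, with adjusted p from 0.0570 (Sqle) to 0.295 (Srebf2), and all 4 Ribo-seq calls were. The Ribo-seq call of Fdft1 was lost in 4 of 24 alternatives: with the most-read transcript (0.58, edgeR adjusted p = 0.254), DESeq2 (0.68, 0.114), the GC and length offset (0.63, 0.0524) and without experiment 1 (0.86, 0.0531). Insig1 and Idi1 did not pass in either assay. Insig1 differed by 0.34 ± 0.24 in mRNA-seq (edgeR adjusted p = 0.257) and −0.28 ± 0.21 in Ribo-seq (0.357). The mRNA-seq direction of Insig1 turns under TMM scaling (−0.20). Its Ribo-seq fall passed in 2 of 24 alternatives, TMM scaling and the GC and length offset (lowest edgeR adjusted p = 0.0104). Against the median gene, Insig1 lay lower in all 3 experiments in Ribo-seq (−0.69, −0.30 and −0.75) and in mRNA-seq (−0.06, −0.003 and −0.38). Idi1 differed by −0.40 ± 0.45 and −0.37 ± 0.44.

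Ribosome occupancy (ribo-ocp), the ratio of the Ribo-seq to the mRNA-seq level of a gene, was highest on average for Hmgcs1, at 4.61, 6.32 and 13.2 in control experiments 1, 2 and 3, 4.33, 5.21 and 12.6 in CPA1 and 4.68, 5.04 and 8.97 in CPA18. It was lowest on average for Srebf2 and Insig1. Srebf2 stood at 1.43, 0.811 and 0.671 in control and 1.02, 0.355 and 0.480 in CPA18, and Insig1 at 0.624, 0.653 and 1.25 in control and 0.653, 0.592 and 0.714 in CPA18. The spread between experiments was larger than that between treatments for Hmgcs1, which kept the same order of experiments in each treatment.

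Whether a Ribo-seq change differed from the mRNA-seq change was tested as an interaction in 1 edgeR fit of the 18 libraries. Hmgcs1 aside, no member passed in CPA18 against control (0 of 7) or against CPA1 (0 of 7), beside 0.606% and 0.101% of all genes in either direction and 0.13% in CPA1 against control. DESeq2 also called 0 in both comparisons, and 0 members had an unadjusted p under 0.05 with edgeR. The members nearest to the threshold in CPA18 against control were Sqle (log2 −0.65 ± 0.33, edgeR adjusted p = 0.551) and Srebf2 (−0.72 ± 0.38, edgeR adjusted p = 0.577). Cyp51 differed by −0.06 ± 0.32 and Fdps by −0.32 ± 0.31. The standard errors of 0.31 to 0.67 leave changes in either direction undetectable at this depth. The median of the 8 members was −0.32 in CPA18 against control, beside 0.03 for all genes, and it lay below the median gene in each of the 3 experiments.

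**Figure D3:**
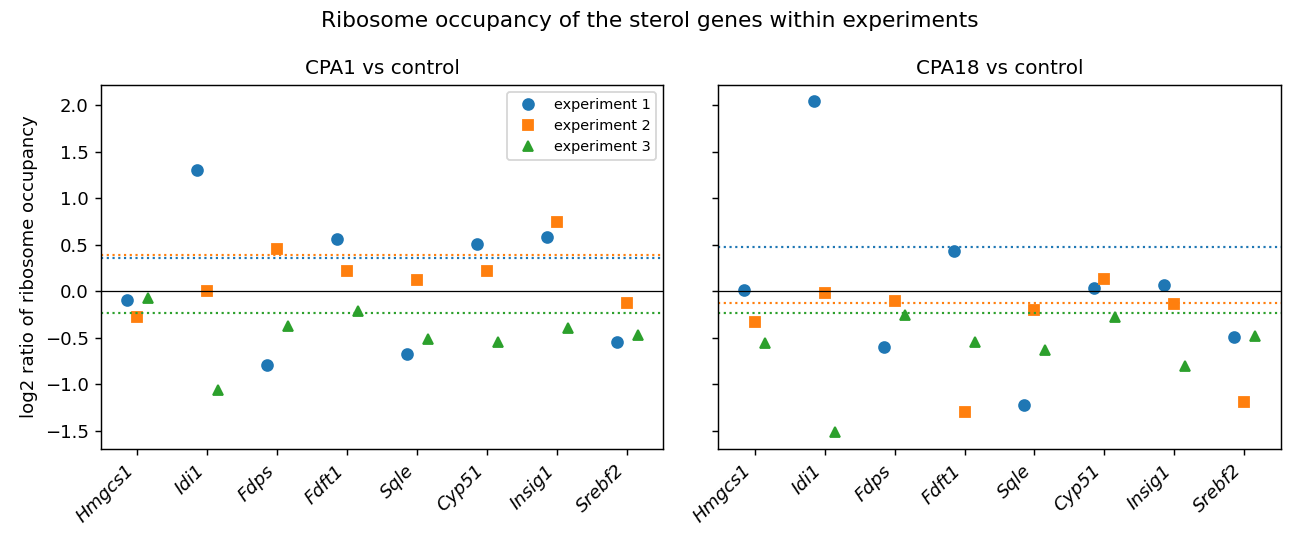
Log2 ratios of ribosome occupancy within each experiment (1 point per experiment) for CPA1 against control on the left and CPA18 against control on the right, with dotted lines at the median gene of the same experiment. Srebf2 lies below 0 in all 3 experiments in both panels, as do Hmgcs1 in the left panel and Sqle and Fdps in the right panel, and Idi1, with few reads, spreads from −1.52 to 2.04 in CPA18.

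The other genes of the pathway were taken from 7 lists of general knowledge, 63 genes of which 52 were tested. The lists, too, were chosen with earlier results of these data known. In CPA18 against control, 18 of the 52 were higher and 3 lower in mRNA-seq (2 and 0 without the block), and 13 were higher and 4 lower in Ribo-seq (13 and 4 without the block). These counts, and those of the single lists below, stand beside the shares over all genes. In CPA18 against control these were 27.7% higher and 8.15% lower in mRNA-seq, and 26% and 6.8% in Ribo-seq. The 52 genes had a median log2 difference of 0.42 in mRNA-seq and 0.33 in Ribo-seq, beside 0.38 and 0.39 for all genes. In CPA1, 0 of 52 passed in mRNA-seq in either direction with edgeR or DESeq2 (1 had an unadjusted p under 0.05), and 3 were higher and 3 lower in Ribo-seq (0 and 0 without the block). With edgeR and with DESeq2, 0 genes of the lists passed in ribo-ocp in each comparison, where 4 (CPA1 and CPA18 against control) or 1 (CPA18 against CPA1) had an unadjusted p under 0.05. The count of 18 and 3 in mRNA-seq fell to 13 in all without the control library of experiment 2 and to 10 without the libraries of experiment 3.

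Among the enzymes from acetyl-CoA to lanosterol, 2 of 5 passed in both assays. Lss, lanosterol synthase, which closes the sterol rings, stood at 3.63, 3.26 and 3.47 RPKM in control mRNA-seq and 11.4, 18.6 and 25.6 in CPA18, a log2 rise of 2.44 ± 0.32 (edgeR adjusted p = 4.93e-11) with 2.15 ± 0.26 in Ribo-seq (5.38e-13). Pmvk, phosphomevalonate kinase, rose by 1.47 ± 0.30 in mRNA-seq (edgeR adjusted p = 2.12e-05, 0.151 without the block) and 1.83 ± 0.29 in Ribo-seq (3.56e-08). Mvd was not tested.

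From lanosterol to cholesterol, 3 of 8 genes rose in mRNA-seq and 1 in Ribo-seq (1 and 1 without the block). Msmo1, the C-4 methyl sterol oxidase, stood at 21.8, 14.8 and 14.6 RPKM in control mRNA-seq and 92.0, 65.1 and 74.1 in CPA18 and rose by 2.20 ± 0.31 in mRNA-seq (edgeR adjusted p = 3.57e-10) and 1.61 ± 0.21 in Ribo-seq (9.33e-12). Sc5d and Nsdhl passed in mRNA-seq only, by 1.16 ± 0.41 and 1.01 ± 0.38, and their change in ribo-ocp did not pass. Control experiment 1 held only 3 mRNA-seq reads of Sc5d and 2 of Nsdhl. The Nsdhl groups overlapped, at 1.73 to 8.24 RPKM in control and 3.27 to 14.5 in CPA18 mRNA-seq. Dhcr7, which makes cholesterol in the last step, differed by 0.67 ± 0.36 in mRNA-seq (edgeR adjusted p = 0.134) and 0.65 ± 0.40 in Ribo-seq (0.209) and did not pass.

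**Figure D4:**
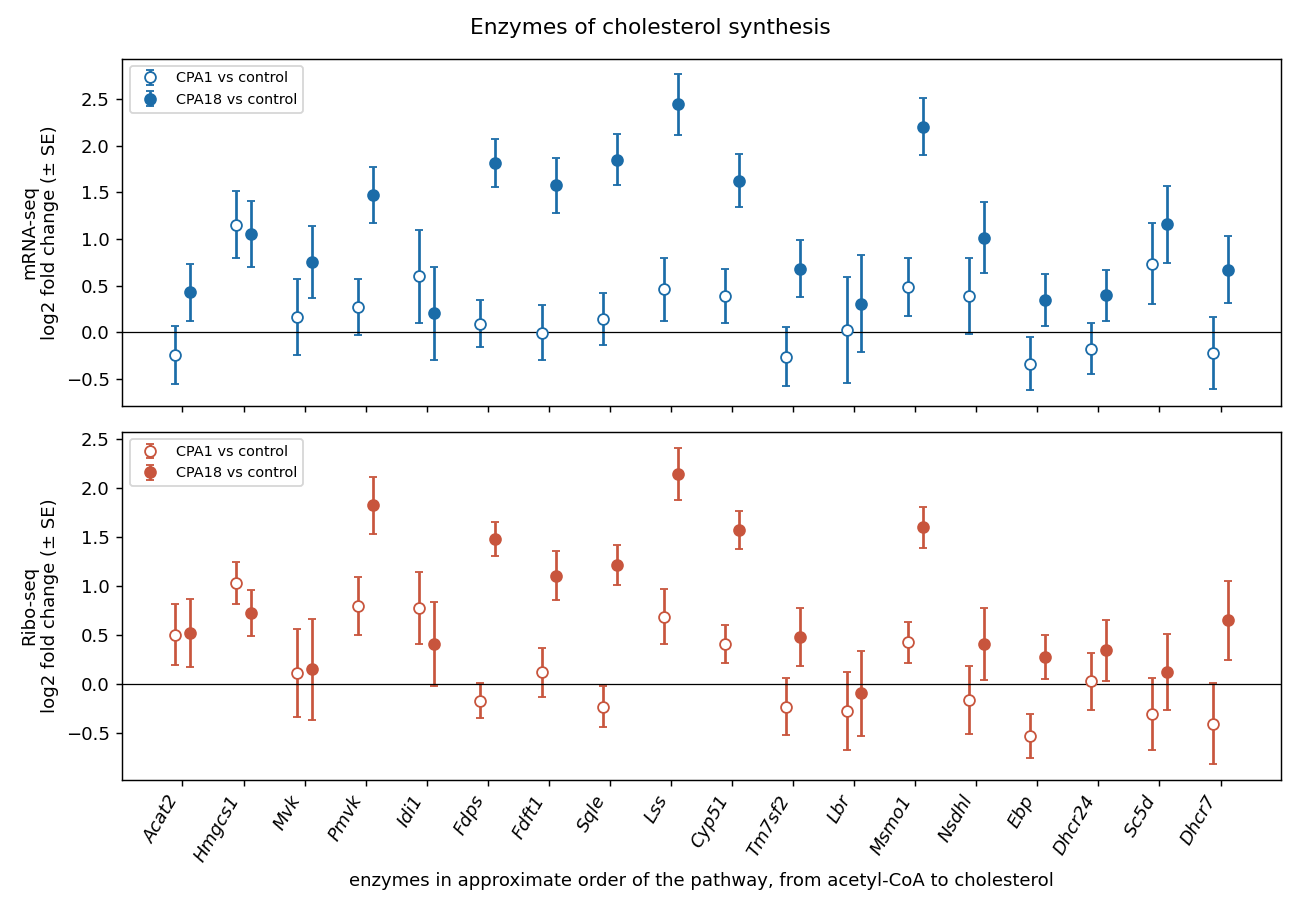
Fitted log2 fold changes with standard errors (bars) for 18 tested sterol enzymes, in approximate pathway order, in mRNA-seq above and Ribo-seq below, with CPA1 against control as open circles and CPA18 against control as filled circles. Lss and Msmo1 are the highest enzymes in CPA18 mRNA-seq, at 2.44 and 2.20.

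Among the SREBP regulators, 4 of 11 rose in CPA18 mRNA-seq and 1 in Ribo-seq. Ube2g2, a ubiquitin-conjugating enzyme of ER-associated degradation, rose in both (1.88 ± 0.26, edgeR adjusted p = 4.76e-10, 0.0548 without the block, and 2.95 ± 0.28, 3.38e-20). Aup1, a lipid droplet protein of the same pathway, was among the mRNA-seq calls (0.81, edgeR adjusted p = 0.0287). Srebf1, which encodes SREBP1, did not pass at 18 h (−0.18 ± 0.25 in mRNA-seq and −0.34 ± 0.20 in Ribo-seq). In Ribo-seq it stood at 70.6, 53.3 and 65.6 RPKM in control, 106, 73.6 and 99.1 in CPA1 and 38.8, 50.6 and 57.1 in CPA18. It was higher in CPA1 than in control (0.55 ± 0.18, edgeR adjusted p = 0.0303, 0.159 without the block) and lower in CPA18 than in CPA1 (−0.89 ± 0.20, 0.000128).

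Of 8 genes of uptake and cholesterol transport, 4 rose in both assays and 1 fell in mRNA-seq. Tmem97, an ER protein that binds NPC1, stood at 41.8, 91.7 and 132 RPKM in control mRNA-seq and 159, 529 and 489 in CPA18, a rise of 2.15 ± 0.26 (edgeR adjusted p = 9.34e-13, 0.0743 without the block) with 2.14 ± 0.22 in Ribo-seq (1.61e-18). Osbp, an oxysterol-binding lipid carrier, and Npc1, the lysosomal cholesterol exporter, rose by 0.83 to 1.49 across the assays. Npc2 fell by 0.77 in mRNA-seq. In the isoprenoid branches, 3 of 5 rose in mRNA-seq (Fntb, Dhdds and Fnta) and 2 in Ribo-seq (Nus1 and Dhdds).

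Efflux and fatty acid genes included most of the decreases. Of 3 tested genes of efflux and esterification, 1 fell in mRNA-seq and 2 in Ribo-seq. Abca1, the exporter that loads cholesterol on apolipoproteins, fell from 4.12, 2.43 and 1.01 RPKM in control mRNA-seq to 1.02, 0.779 and 0.325 in CPA18, by 1.74 on the log2 scale (−1.74 ± 0.39, edgeR adjusted p = 0.000134, 0.115 without the block), and by 1.79 in Ribo-seq (−1.79 ± 0.28, 1.08e-08). Abcg1, a related exporter, fell by 0.76 in Ribo-seq. Of 12 fatty acid genes, 2 rose and 1 fell in mRNA-seq, and 3 rose and 2 fell in Ribo-seq. Acly, which makes cytosolic acetyl-CoA, fell by 0.84 in mRNA-seq (−0.84 ± 0.26, edgeR adjusted p = 0.00623, 0.359 without the block) and by 1.08 in Ribo-seq (−1.08 ± 0.15, 3.85e-10), and Fasn, fatty acid synthase, fell by 0.64 in Ribo-seq. Me1, malic enzyme, rose by 1.59 ± 0.39 in mRNA-seq and 1.23 ± 0.33 in Ribo-seq (edgeR adjusted p = 0.000542 and 0.00173).

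After 1 h, the Ribo-seq calls of the lists included Ube2g2 (1.09 ± 0.31), Stard4 (0.92 ± 0.30), a sterol carrier, and Srebf1 upwards, and Abca1 (−0.69 ± 0.22) and Fasn (−0.48 ± 0.16) downwards. Over all genes, 3.93% were called higher and 3.12% lower in CPA1 Ribo-seq. None of the 6 calls of the lists passed without the block, and 0 to 2 calls were left when any 1 of the CPA1 or control Ribo-seq libraries was left out. From CPA1 to CPA18, 22 of the 52 were higher and 3 lower in mRNA-seq (2 and 0 without the block), and 14 and 3 in Ribo-seq (14 and 3 without the block). Over all genes, 34.7% were higher and 5.89% lower in mRNA-seq, and 18.9% and 5.93% in Ribo-seq. Dhcr7 was among the 22 higher in mRNA-seq (0.90 ± 0.36, edgeR adjusted p = 0.0339) and did not pass without the block. As a reference for ER stress, 3 of 6 tested unfolded protein response genes were higher in CPA1 in each assay, with Hsp90b1 lower in Ribo-seq, and 5 and 6 of 6 were higher in CPA18. Without the block, 0 of the 6 passed in CPA1 mRNA-seq, the lower call of Hsp90b1 was lost, and 3 passed in CPA18 mRNA-seq.

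The genes most like Hmgcs1 over the 9 libraries of an assay were taken by Pearson's r of log2(RPKM + 0.5) after the mean of each experiment was removed, among genes with a mean of at least 5 RPKM. The libraries share depth and composition, so r is a description. In mRNA-seq, among 4910 genes, these were Phax (r = 0.925), Gadd45a (0.884), Chac1 (0.881), Ctnnbl1 (0.878) and Ppp1r21 (0.874). Chac1, a glutathione-degrading enzyme, went from 15.8 to 26.5 RPKM in control to 174 to 498 in CPA18, a far larger change than that of Hmgcs1. In Ribo-seq, among 5678 genes, they were Rgs11 (r = 0.991), Hjurp (0.963), Igf2 (0.960), Tubg2 (0.939) and Zfp91 (0.937). Few Ribo-seq reads underlie Rgs11 (18, 33 and 13 in all of control, CPA1 and CPA18) and Tubg2 (29, 29 and 21). Mean Igf2 mRNA-seq went from 309 RPKM in control to 156 in CPA18, while its Ribo-seq mean went from 458 to 563. No member was among these 10 places. Insig1 was at place 78 in mRNA-seq (r = 0.736) and 59 in Ribo-seq (0.849). Idi1 was at place 23 in Ribo-seq (0.893), but its r in mRNA-seq was 0.217, with a mean below 5 RPKM. Cyp51 (0.560 and 0.451), Fdps (0.464 and 0.172), Sqle (0.468 and 0.033) and Fdft1 (0.367 and 0.432) were less like Hmgcs1 than Insig1 was in both assays. Srebf2 had an r of 0.089 in mRNA-seq and ran the other way in Ribo-seq (−0.772).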

How the data were processed

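mRNA-seq and Ribo-seq libraries of MIN6 cells covered 3 treatments and 3 experiments. The authors aligned the reads with Bowtie2 to the RNA reference of GRCm38 and deposited raw counts on each RefSeq transcript, transcript lengths, and RPM and RPKM made from them; the deposited RPM was not used. The deposited RPKM, scaled by library total and transcript length, was summed per gene and matched the value recomputed from the counts within 0.00111 on the log2 scale. Transcript strand handling and the treatment of reads that fit several transcripts are not given in the sources used here, so genes with near-identical copies are uncertain.

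Counts of all NM_ transcripts were summed per gene with the GRCm38 RefSeq annotation (of 30741 transcripts, 31 found no match). Tested were the 6929 genes with a transcript read at least 1 time in all 18 libraries. The test was edgeR's quasi-likelihood test (R 4.3.3, edgeR 4.0.16). Library size was the total count, each assay's 9 libraries entered 1 fit, and the experiment was a block. For ribo-ocp, 1 fit over 18 libraries held an interaction between treatment and assay and separate experiment blocks per assay. The p-values were Benjamini-Hochberg adjusted over all genes, with 0.05 as the threshold. The replicate number stands for an independent experiment in the labels, and deviations of libraries with the same number correlated with a mean r of 0.578 in mRNA-seq (0.112 to 0.774 over 9 pairs) and 0.152 in Ribo-seq (0.0923 to 0.202). Nothing states that cultures within an experiment were separate passages.

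Groups came from sample titles. Members, gene lists and motifs were chosen with earlier results of these data known. Named are the members, listed genes called with the largest differences (at most 6 a list), Dhcr7, Srebf1, and the 5 genes most like Hmgcs1 in each assay; Npc2, Nsdhl, Sc5d, Hsp90b1 and Fasn are among the called genes of their lists. Some genes this rule names are counted but not reported here individually. Alternatives were TMM scaling, totals without the insulin genes and Lars2, DESeq2 1.42.0, limma 3.58.1 with pseudocounts of 0.5 and 1, other filters and transcripts, a GC and length offset (splines with 4 degrees of freedom), no block, and left-out libraries. Depth limits low counts, and errors cover only the spread between these libraries. The scripts were tested on simulated data. Python 3.11.15, pandas 2.3.3 and matplotlib 3.10.9 made the tables and plots.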

Additional observations from a re-analysis of the deposited data

Results flagged for a closer look

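Insig1 and Elovl6 moved in opposite directions in mRNA-seq and Ribo-seq from CPA1 to CPA18 in all 3 experiments. Insig1 mRNA-seq log2 ratios were 0.14, 0.80 and 0.08 and its Ribo-seq ratios −0.38, −0.08 and −0.33, so that ribo-ocp fell by 0.61 on average (−0.607 ± 0.251, SD, n = 3). The interaction test of this difference gave an edgeR adjusted p of 0.832, so the difference did not pass, and the mRNA-seq direction turns under TMM scaling (−0.20). Elovl6, a fatty acid elongase of the lists, had mRNA-seq ratios of −0.75, −0.27 and −0.55 and Ribo-seq ratios of 0.46, 0.27 and 0.99, a mean ribo-ocp ratio of 1.10 ± 0.510 (SD, n = 3), and its interaction gave an edgeR adjusted p of 0.906. The cause was not tested.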

How the results depend on the processing

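Counts of members called are of the 7 members other than Hmgcs1, whose choice used the same control libraries. Without the replicate block, the members called in mRNA-seq went from 6 to 1 in CPA18 against control and from 5 to 0 against CPA1. The pathway genes went from 21 to 2 and from 25 to 2, while the pathway genes of CPA1 Ribo-seq went from 6 to 0. Over all genes, calls went from 2483 to 140 (CPA18 against control), 2813 to 123 (CPA18 against CPA1) and 68 to 0 (CPA1 against control) in mRNA-seq, from 488 to 224 in CPA1 Ribo-seq, and from 42 to 3 in CPA18 ribo-ocp against control; the other counts of members and pathway genes were the same without the block. DESeq2 called 3 members in CPA18 Ribo-seq against 5. Leaving out replicates gave 4 to 6 members in CPA18 mRNA-seq, 4 without the control library of experiment 3 or without experiment 3. The pathway genes ran from 10 to 24 in CPA18 mRNA-seq (13 without both control libraries of experiment 2), from 0 to 6 in CPA1 Ribo-seq and from 0 to 1 in CPA1 ribo-ocp. In CPA1 Ribo-seq the pathway count was 3 with DESeq2, with the most-read transcript and with no filter, and 0 with limma at either pseudocount or without both control libraries of experiment 2; limma gave 11 in CPA18 Ribo-seq against 17. The median of the 8 members in CPA1 Ribo-seq was 0.18 with the GC and length offset against 0.27.

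Directions turned only where no call was made. Insig1 in CPA18 against CPA1 mRNA-seq was −0.12 with DESeq2, −0.13 with the GC and length offset, −0.20 with TMM and −0.081 with totals without Ins1, Ins2 and Lars2. Idi1 in CPA18 mRNA-seq was −0.16 with DESeq2, −0.21 with TMM, −0.012 with totals without Ins1, Ins2 and Lars2, −0.047 without both control libraries of experiment 2, and −0.27 to 0.92 with replicates left out. Srebf2 in CPA18 Ribo-seq was −0.37 with DESeq2, −0.41 with the offset, −0.32 with TMM, −0.076 and −0.073 with limma, −0.17 and −0.20 with totals without the insulin genes, with and without Lars2 removed, and −0.26 to 0.14 with replicates left out. The cause of these changes was not tested. Ribo-seq depth in CPA18 (168129 to 553842 reads) and the few reads of Idi1 and Hmgcs1 limit what can be seen.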
